A study of Saccharomyces cerevisiae with 12 samples.

Results

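CR-treated *sus1*Δ cells of the budding yeast *Saccharomyces cerevisiae* were compared with CR-treated WT cells. The members of the comparison were chosen by sample title and make up 6 of the 12 arrays of the series, 3 arrays for each strain, and the other 6 arrays hold the untreated cells of the same strains. All groups carry the BY4741 background (*MATa his3*Δ1 *leu2*Δ0 *met15*Δ0 *ura3*Δ0), and in the mutant a KanMX4 cassette replaces *SUS1*, so that the WT group has every auxotrophic deletion that the mutant has. Each strain was grown as 3 biological samples in rich medium. Each of these was divided, and one part received Congo red (CR) at 30 μg/mL. The treatment lasted 3 h by the titles and the methods of the study, whereas the series design gives 2 h. The deletion was made by the study in BY4741 with a PCR-built cassette, and no array of a strain with *SUS1* restored was analysed here. The question of the comparison was which transcripts differ between cells with and without Sus1 while both are under cell wall stress.

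Sus1 is a small protein shared by the deubiquitination module of SAGA, which removes ubiquitin from histone H2B, and by TREX-2, which links transcription to mRNA export at the nuclear pore. CR attaches to the chitin of the cell wall and weakens its assembly. This stress is read by the cell wall integrity (CWI) pathway, in which surface sensors, the GTPase Rho1 and the kinase Pkc1 activate a MAP kinase cascade that ends in Slt2. Slt2 activates the transcription factor Rlm1, which turns on genes for wall proteins, for enzymes that make or remodel glucan and chitin, and for components of the pathway itself.

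Signals are on the log2 scale, where a difference of 1 is a 2-fold ratio, and 1 probe set stood for each of 5449 genes. The level of a gene is its mean signal over the CR-treated WT arrays. Statements are about the 4785 genes with a level of 7 or more unless another range is named, because dim probe sets read higher on the mutant arrays, as described below. Differences are *sus1*Δ minus WT, with a standard error (SE) and a two-sided p from limma, corrected for the number of all genes after Benjamini and Hochberg. To be called, a gene needed an adjusted p below 0.05 together with a 2-fold or larger difference in signal. Gene lists were counted at the adjusted p alone. A lower signal in a bulk culture does not tell fewer transcribing cells from less RNA in each cell. Values are compared between groups and not between genes, since probe sets differ in brightness.

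The deleted gene matched its labels. *SUS1* read 8.40, 8.53 and 8.32 on the CR-treated WT arrays and 3.34, 2.82 and 3.15 on the CR-treated *sus1*Δ arrays. The groups were far apart, with a log2 difference of -5.31 (SE 0.19, adjusted p = 2.6e-08 from limma) whose size the floor of the array limits. *URA3*, which is deleted in both strains, read 2.57 to 3.10 in WT and 3.01 to 3.08 in *sus1*Δ cells, and *LEU2*, likewise deleted, 3.85 to 4.44 and 3.79 to 4.12. Both are at the floor in either strain. *HIS3* kept a signal of 9.48 to 10.16, since the his3Δ1 allele lacks part of the gene only, and was lower in the mutant (log2 difference -0.45, adjusted p = 0.0035 from limma). Of the chromosomal neighbors of *SUS1*, *YSA1*, which encodes a nucleoside diphosphate sugar hydrolase, read 11.57, 11.70 and 11.44 in WT and 10.86, 10.82 and 10.78 in *sus1*Δ cells. Its difference was -0.75 (SE 0.11, adjusted p = 0.00084 from limma), close to the -0.71 of the untreated arrays. The actin gene *ACT1* differed by -0.01 (adjusted p = 0.92 from limma). The mating type of the BY4741 background was met in every treated array, with the a-specific gene *MFA1* at 11.26 to 12.83 and *BAR1* at 10.19 to 11.36. Neither differed past the threshold (adjusted p = 0.69 and 0.6 from limma), and both were lower in the mutant without WT culture 3 (-0.77 and -0.60). Other a-specific genes did not share that direction. *STE6* was higher in the mutant by 0.50 (adjusted p = 0.0023 from limma), and by 0.41 without WT culture 3. *MFA2* (0.11) and *STE2* (0.22) did not pass (adjusted p = 0.64 and 0.45 from limma). For *CYC8*, which encodes a corepressor and lies on the other side, the difference was 0.06 (SE 0.12, adjusted p = 0.77 from limma).

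The replicates of the strains were not equally alike. Correlations between arrays were 0.983 to 0.991 within CR-treated WT and 0.995 to 0.996 within CR-treated *sus1*Δ cells, and the median SD of a gene was 0.148 and 0.0784. Both arrays of WT culture 3 stood apart from the other WT cultures, and results whose call changes without it are given with that value. The labels give no date, slide or extraction batch, so strain and any such batch cannot be told apart.

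With both strains under CR, 29 genes were called higher and 10 lower in *sus1*Δ cells, which is 0.606% and 0.209% of the genes with a level of 7 or more. The 3 arrays of one strain did not overlap the 3 of the other on any of the 39 genes, and they did not overlap on 44.2% of all genes at this level. At an adjusted p under 0.05 with no limit on the ratio, 658 genes (13.8%) were higher and 581 (12.1%) lower, so most differences were smaller than 2-fold. These shares are the background for the list counts below. Among the genes called higher, 27 of 29 were also higher at an adjusted p under 0.05 between the untreated strains, where 10.1% of genes were higher and 7.98% lower. Of the 9 genes called lower other than *SUS1*, 2 were also lower without CR. Without WT culture 3, 26 genes were called higher and 22 lower, and 22 and 7 of these were among the 29 and 10. The higher calls lost were *BDH2* (0.98), *HOS2* (0.98), *SYF2* (0.98), *HDA1* (0.97), *RDS1* (0.95), *SAS10* (0.94) and *SHU2* (0.90). Their adjusted p stayed under 0.05. Among the genes gained were *HST2* (1.01) and *SIL1* (-1.01). Other WT arrays also moved calls. Without CR-treated WT array 2, 25 genes were called higher and 10 lower. The higher calls lost were *CBF1* (just under 1), *PHO4* (0.97), *SSO2* (0.96), *DIC1* (0.94), *PHD1* (0.89) and *BUD22* (0.87). Their adjusted p stayed under 0.05 too, and *MET6* (1.15) and *EFG1* (1.02) were gained.

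**Figure D1:**
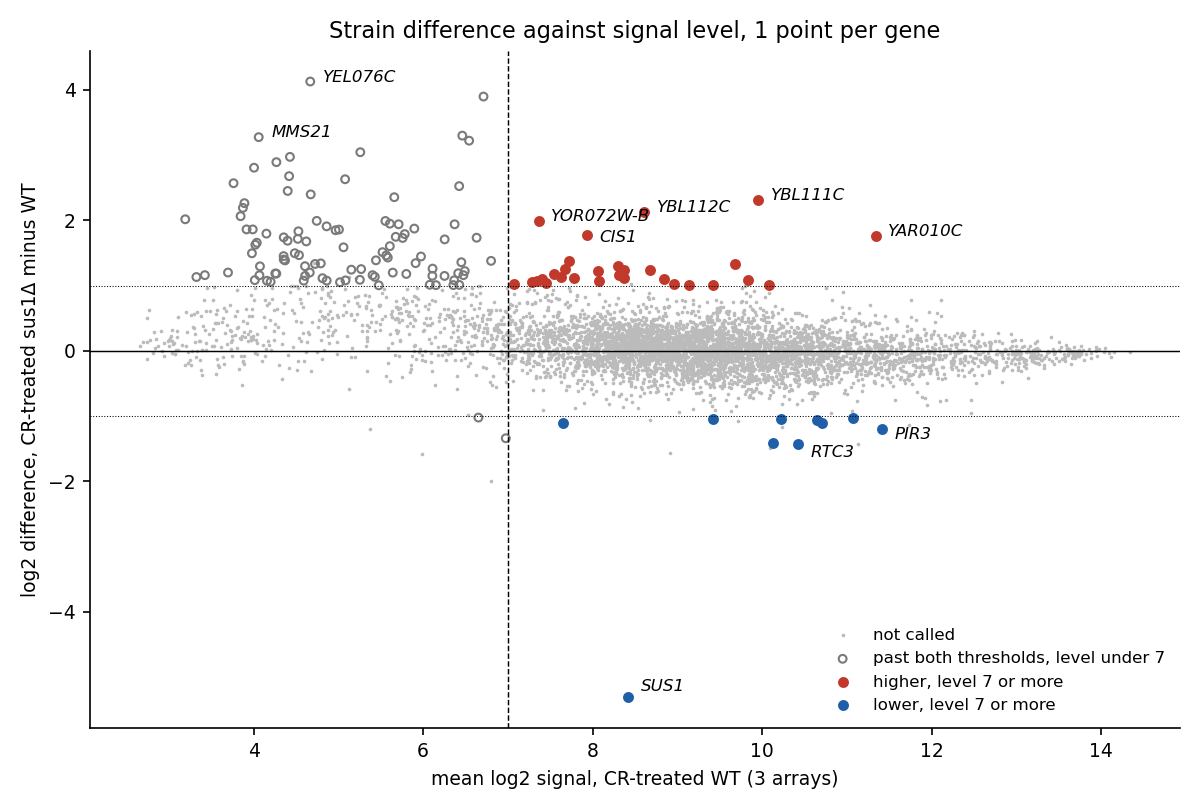
Log2 difference between CR-treated *sus1*Δ and WT cells (vertical axis) against the mean log2 signal of the gene in CR-treated WT cells (horizontal axis), 1 point for each of 5449 genes. The dashed line marks the level of 7 and the dotted lines ratios of 2 and 0.5. Of the called genes 99 lie above 0 and 2 below to the left of level 7, and 29 lie above and 10 below to the right of it.

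The 9 genes called lower other than *SUS1* differed by -1.03 to -1.44. *PIR3*, which encodes an O-glycosylated protein linked to wall glucan, read 11.39, 11.37 and 11.49 in WT and 10.24, 10.12 and 10.28 in *sus1*Δ cells. Every mutant array was at least 1 log2 unit below every WT array, and the difference was -1.20 (SE 0.16, adjusted p = 0.0004 from limma), a 2.30-fold lower signal. Without CR the order was the opposite. Untreated *PIR3* read 5.86 to 6.64 in WT and 6.96 to 7.10 in *sus1*Δ cells, a difference of 0.88 (adjusted p = 0.0036 from limma). These untreated signals lie near or under 7, where dim probe sets read higher on the mutant arrays. How much of the untreated difference comes from that shift was not tested.

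*YNR065C*, which encodes a relative of the sorting receptor Vps10, read 11.11, 11.01 and 11.10 in WT and 10.26, 9.84 and 10.02 in *sus1*Δ cells. The groups did not overlap, and the difference was -1.03 (SE 0.11, adjusted p = 0.00013 from limma) against 0.14 without CR (adjusted p = 0.37). *YPS3*, which encodes an aspartyl protease anchored at the cell surface, read 10.32, 9.75 and 10.61 in WT and 9.40, 8.82 and 9.32 in *sus1*Δ cells. The lowest WT array, that of culture 2, was still above the highest mutant array, with a difference of -1.05 (SE 0.20, adjusted p = 0.0032 from limma). *BOP2* read 7.43, 7.50 and 8.02 in WT and 6.85, 6.46 and 6.33 in *sus1*Δ cells. With means of 7.65 and 6.55 it has a level of 7 in WT only, and of the 10 genes called lower 8 remain where both treated groups need that level. Its mutant arrays lay close to the untreated range of both strains, 5.93 to 6.51, and the difference was -1.10 (SE 0.19, adjusted p = 0.0019 from limma). *AFB1*, whose product is a secreted protein that binds the a-factor pheromone, read 10.31, 10.23 and 9.85 in WT and 8.70, 8.54 and 8.91 in *sus1*Δ cells, a difference of -1.41 (SE 0.17, adjusted p = 0.00027 from limma).

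The remaining genes called lower have other roles. *RTC3* read 10.44, 10.44 and 10.40 in WT and 9.15, 9.03 and 8.79 in *sus1*Δ cells. The WT arrays were almost equal and all above the mutant ones, with the lowest difference of the called genes after *SUS1*, -1.44 (SE 0.33, adjusted p = 0.0084 from limma). The SE shares the spread of the untreated arrays, on which WT culture 3 read 8.15 and the other WT cultures 9.57 and 9.65. *PLN1*, which encodes a lipid droplet protein, differed by -1.07 (SE 0.19, adjusted p = 0.0025 from limma). For *ATX2*, which encodes a Golgi protein of manganese balance, arrays read 10.75, 10.36 and 11.01 in WT and 9.52, 9.56 and 9.71 in *sus1*Δ cells (difference -1.11, SE 0.15, adjusted p = 0.00057 from limma). *YOR192C-C*, a retrotransposon gene, was lower with and without CR (-1.05 and -1.35, adjusted p = 0.011 and 0.0043 from limma). Without WT culture 3 the ratios of *YPS3* (log2 difference -0.86), *BOP2* (-0.92) and *ATX2* (-0.96) no longer reached 2-fold, while their adjusted p stayed under 0.05.

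**Figure D2:**
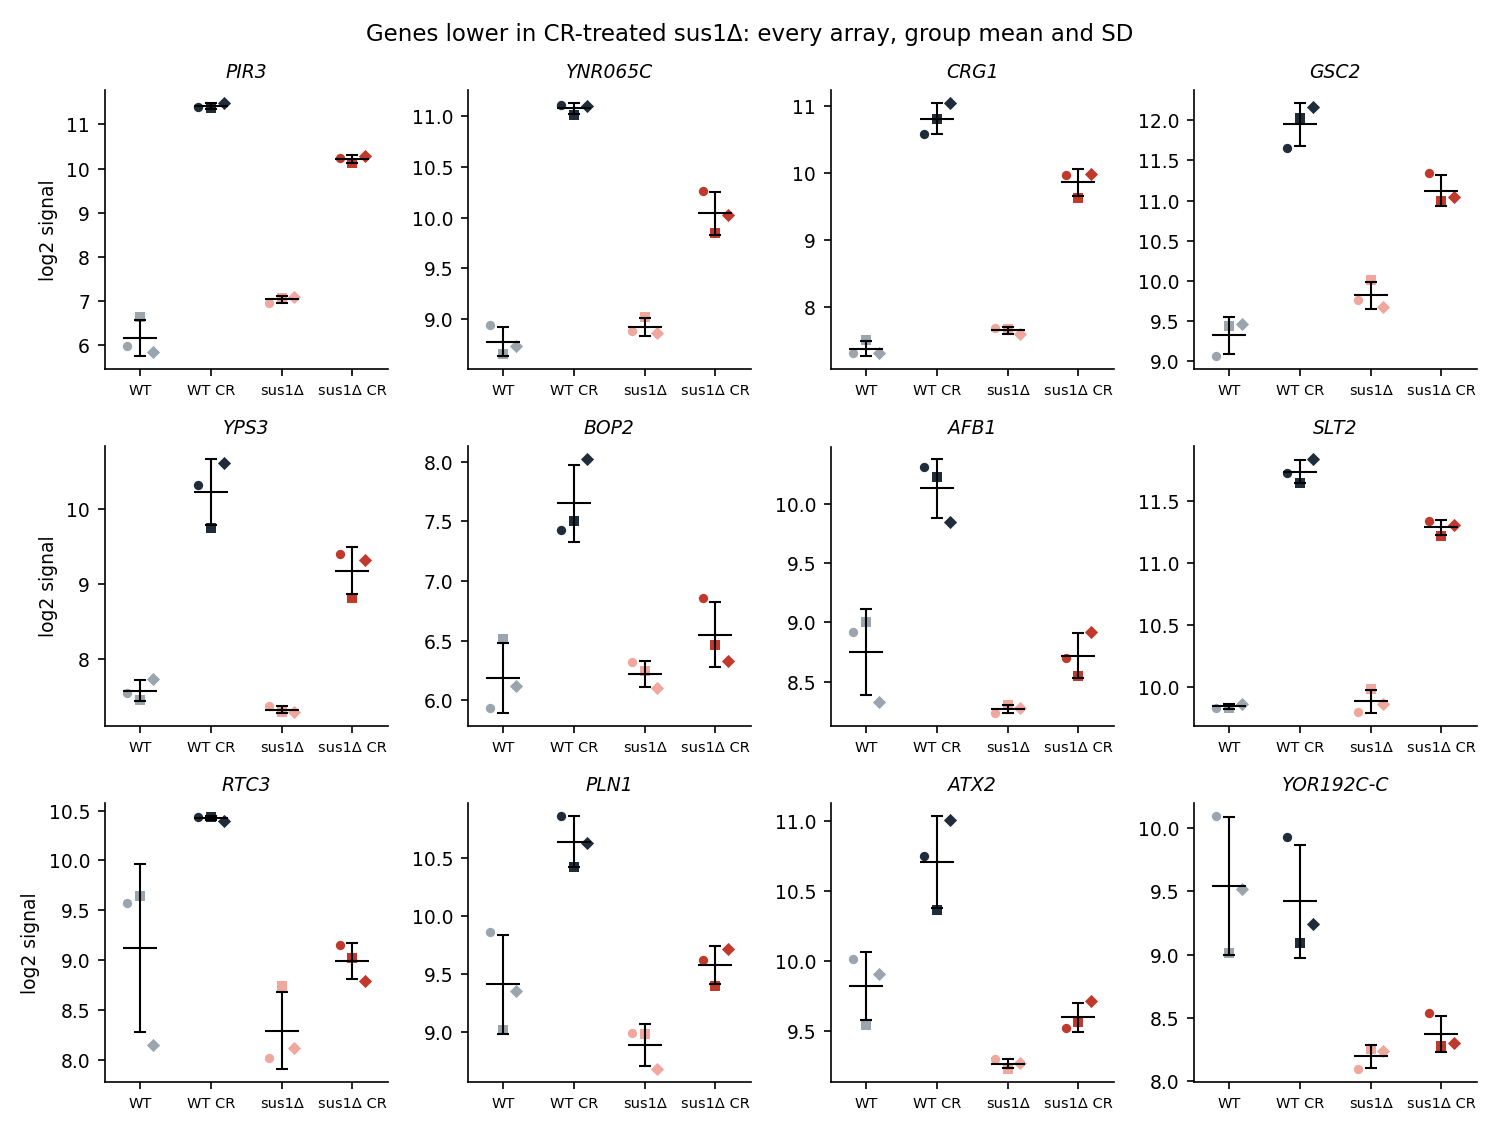
Log2 signal (vertical axes) of 12 genes with a lower mean in CR-treated *sus1*Δ cells, in untreated and CR-treated cells of each strain. Circles, squares and diamonds are arrays 1, 2 and 3, the horizontal bar is the mean and the error bar the SD (n = 3). *PIR3* reads 11.37 to 11.49 in CR-treated WT and 10.12 to 10.28 in CR-treated *sus1*Δ cells.

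The wider CR program was lower as well. Of the 91 genes that the study lists as induced by CR in WT cells, 84 were measured and 68 had a level of 7 or more. Of these 68, 40 were lower in CR-treated *sus1*Δ cells and 0 higher (28 did not pass), against 12.1% and 13.8% of all genes at this level, and their median difference was -0.44 against 0.01. Without CR, 10 of the same 68 genes were higher in the mutant and 4 lower, with a median of 0.08. The list was chosen by the study on these arrays, and the CR-treated WT arrays that put a gene on it are the arrays it is compared with here, so its direction is not independent evidence. The count was 42 without WT culture 3 and 40 after quantile normalization. The median CR response of the members was 1.34 for WT and 0.81 for *sus1*Δ cells. Lists share genes, and *KDX1*, *SLT2*, *MSG5*, *PTP2*, *GSC2* and *YPS3*, which come up again below, stand on this list as well.

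Among named members, *CRG1*, which encodes a methyltransferase, read 10.59, 10.80 and 11.05 in WT and 9.96, 9.63 and 9.98 in *sus1*Δ cells. The groups were separate and the difference was -0.95 (SE 0.13, adjusted p = 0.00039 from limma), just short of a 2-fold ratio. *YPL088W*, a putative aryl alcohol dehydrogenase gene, read 10.83, 11.04 and 11.32 in WT and 10.14, 10.08 and 10.21 in *sus1*Δ cells (difference -0.92, SE 0.11, adjusted p = 0.00027 from limma). *GSC2*, which encodes the stress form of the glucan synthase subunit, read 11.65, 12.03 and 12.17 in WT and 11.34, 10.99 and 11.04 in *sus1*Δ cells. It was lower under CR by 0.83 (SE 0.16, adjusted p = 0.0034 from limma) although the untreated mutant was higher by 0.50 (adjusted p = 0.045). *KDX1*, the gene of a protein kinase related to Slt2, read 10.04, 10.02 and 10.60 in WT and 9.85, 9.74 and 9.77 in *sus1*Δ cells. All mutant arrays were below all WT arrays, but the difference of -0.44 did not pass (SE 0.18, adjusted p = 0.087 from limma). Without WT culture 3 it was smaller, -0.24, and passed (adjusted p = 0.0401). *PRM5*, which encodes a membrane protein, differed by -0.43 (adjusted p = 0.0063) with CR and by -0.47 (adjusted p = 0.0058 from limma) without it. For the wall mannoprotein gene *CWP1*, which read 13.13 to 13.15 in WT and 12.72 to 12.73 in *sus1*Δ cells, the difference of -0.41 missed the threshold (adjusted p = 0.055 from limma) and passed when only the treated arrays were fitted (adjusted p = 0.00796) and without WT culture 3 (adjusted p = 0.0093).

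Of 29 genes of CWI signalling, 6 (20.7%) were lower, 4 (13.8%) higher and 19 did not pass, against 12.1% and 13.8% of all genes, with a median of -0.10. *SLT2* read 11.73, 11.65 and 11.84 in WT and 11.34, 11.22 and 11.31 in *sus1*Δ cells. All mutant arrays were below all WT arrays (difference -0.45, SE 0.07, adjusted p = 0.0017 from limma), whereas the untreated strains differed by 0.04 (adjusted p = 0.73). The GTPase gene *RHO1* was lower by 0.49 (SE 0.06, adjusted p = 0.00027 from limma). So were the phosphatase genes *MSG5* (-0.61) and *PTP2* (-0.47), whose products act on Slt2, while *SDP1*, which encodes another Slt2 phosphatase, was higher in the mutant by 0.87 with CR and 0.82 without it. *RLM1* read 9.19, 9.34 and 9.55 in WT and 9.32, 9.21 and 9.31 in *sus1*Δ cells. These ranges overlap, and the difference of -0.08 (SE 0.11) had an adjusted p of 0.62 from limma.

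Genes that build the wall were mixed, apart from the proteases and chitin synthesis. Of 5 yapsin genes with a level of 7 or more, which encode aspartyl proteases of the cell surface, 4 were lower under CR and none higher, and 0 passed without CR. Their median CR response was 1.35 for WT and 0.73 for *sus1*Δ cells. The CR-treated WT arrays that show this rise are the arrays compared here, as for the CR-induced list. *YPS6* read 8.83, 8.92 and 8.86 in WT and 8.33, 8.13 and 8.14 in *sus1*Δ cells (difference -0.67, adjusted p = 0.0048 from limma), *YPS7* differed by -0.36 and *YPS1* by -0.35. Without WT culture 3 *YPS1* missed the threshold (-0.30, adjusted p = 0.0516 from limma) and 3 yapsin genes were lower. Of 14 chitin synthesis genes, 5 were lower and 1 higher. *CHS7*, whose product lets chitin synthase III leave the endoplasmic reticulum, read 11.35, 11.15 and 10.87 in WT and 10.36, 10.36 and 10.34 in *sus1*Δ cells (difference -0.77, SE 0.11, adjusted p = 0.00058 from limma). *CHS6* (-0.50), which encodes a trafficking factor of that enzyme, was lower too, and *GNA1*, which encodes an acetyltransferase that makes the chitin precursor, was higher (0.62). The 30 glucan genes had 5 higher and 4 lower members and the 26 genes of cell wall proteins 5 and 6. In these lists *TIR3* (0.69) was higher and *SPI1* (-0.68) lower.

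The interaction term asked whether the strain difference with CR departed from that without CR. In the fit with group means it passed for 4 genes with a level of 7 or more (0.0836%), all more negative under CR. *PIR3* had an interaction of -2.08 (SE 0.23, adjusted p = 0.0071 from limma), *CRG1* of -1.23 (adjusted p = 0.039), *YNR065C* of -1.17 (adjusted p = 0.024) and *SKM1*, which encodes a PAK kinase, of -0.69 (adjusted p = 0.043). *SKM1* differed by -0.13 under CR (adjusted p = 0.21) and by 0.56 without it, so most of its term lies in the untreated arrays. Treated and untreated arrays with the same number come from 1 culture. With the culture as a random block, 78 genes (1.63%) passed, 54 more negative and 24 more positive under CR. The 39 called genes were chosen by their treated difference, which favors a treated difference larger than the untreated one. Counts of interactions among them are therefore a description. Among these 39 genes, 7 passed with the block in place of 2. Of these, *PIR3*, *YNR065C*, *AFB1* (-0.93, adjusted p = 0.027) and *BOP2* (-1.14, adjusted p = 0.028) were more negative, and *YAR068W* (0.85, adjusted p = 0.019), *SHU2* (0.73, adjusted p = 0.014) and *SAS10* (0.52, adjusted p = 0.046 from limma) more positive. *KDX1* (adjusted p = 0.02), *YPL088W* (0.008), *GSC2* (0.0061) and *SLT2* (0.027 from limma) also passed in that fit. Untreated WT means of *PIR3* (6.2), *KDX1* (6.1) and *BOP2* (6.2) lay under 7, where dim probe sets read higher on the mutant arrays. Their interactions include any such shift, and that of *PIR3* was -1.58 after quantile normalization.

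The genes called higher were for the most part higher without CR too, with a median difference of 1.13 under CR and 0.94 without it. Their choice by the treated difference favors the larger value under CR. *CIS1* read 7.95, 7.87 and 7.98 in WT and 9.67, 9.70 and 9.75 in *sus1*Δ cells. The replicates were tight and the groups wide apart, with a difference of 1.77 (SE 0.09, adjusted p = 6.8e-07 from limma), a 3.42-fold higher signal, and 1.34 without CR. *PDR15*, which encodes a drug efflux pump, read 9.64, 10.01 and 9.39 in WT and 10.92, 11.27 and 10.85 in *sus1*Δ cells (difference 1.34, SE 0.16, adjusted p = 0.00027 from limma). *UPC2*, which encodes an activator of sterol genes, read 7.69, 7.30 and 8.03 in WT and 8.96, 8.92 and 8.90 in *sus1*Δ cells (1.25, SE 0.18, adjusted p = 0.00068 from limma). Of 23 genes of ergosterol synthesis 7 were lower and 1 higher under CR (4 and 0 with only the treated arrays), among the lower *MVD1* (-0.44), *ERG20* (-0.38) and *ERG10* (-0.37), and without CR 1 was lower and 1 higher.

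*CCR4*, which encodes the catalytic deadenylase of the Ccr4-Not complex, read 8.38, 8.69 and 8.95 in WT and 9.93, 9.82 and 9.97 in *sus1*Δ cells. The difference was 1.23 (SE 0.14, adjusted p = 0.00015 from limma) and 1.26 without CR. *UBR2*, which encodes a ubiquitin ligase, differed by 1.30 with CR and 1.10 without it, *POP3*, which encodes a subunit of RNase P and RNase MRP, by 1.22 and 1.18, and *CBF1*, which encodes a factor that binds centromeres and methionine gene promoters, by 1.24 and 0.80. *ANB1*, the hypoxic gene for translation factor eIF5A, read 8.33, 8.34 and 8.28 in WT and 9.61, 9.31 and 9.51 in *sus1*Δ cells (1.16, SE 0.11, adjusted p = 6.2e-05 from limma). *BDH2*, a putative alcohol dehydrogenase gene, read 8.06, 8.20 and 6.92 in WT and 9.19, 9.30 and 8.83 in *sus1*Δ cells. WT culture 3 was its lowest array, and without that culture the difference fell from 1.38 to 0.98. The other higher calls that no repeat family covers, named here after their values were seen to complete the set, were *SWH1*, *BUD22*, *MMS1*, *PHO4*, *PDR16*, *SYF2*, *RDS1*, *SSO2*, *DIC1*, *PHD1* and the histone deacetylase genes *HDA1* and *HOS2*, with differences between 1.00 and 1.12. *YOR072W-B*, for which no role is given here, read 7.79, 6.74 and 7.56 in WT and 9.60, 8.97 and 9.48 in *sus1*Δ cells (1.99, SE 0.26, adjusted p = 0.00035 from limma). The gene has 2 probe sets, and with their mean the difference was 0.97, short of a 2-fold ratio.

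**Figure D3:**
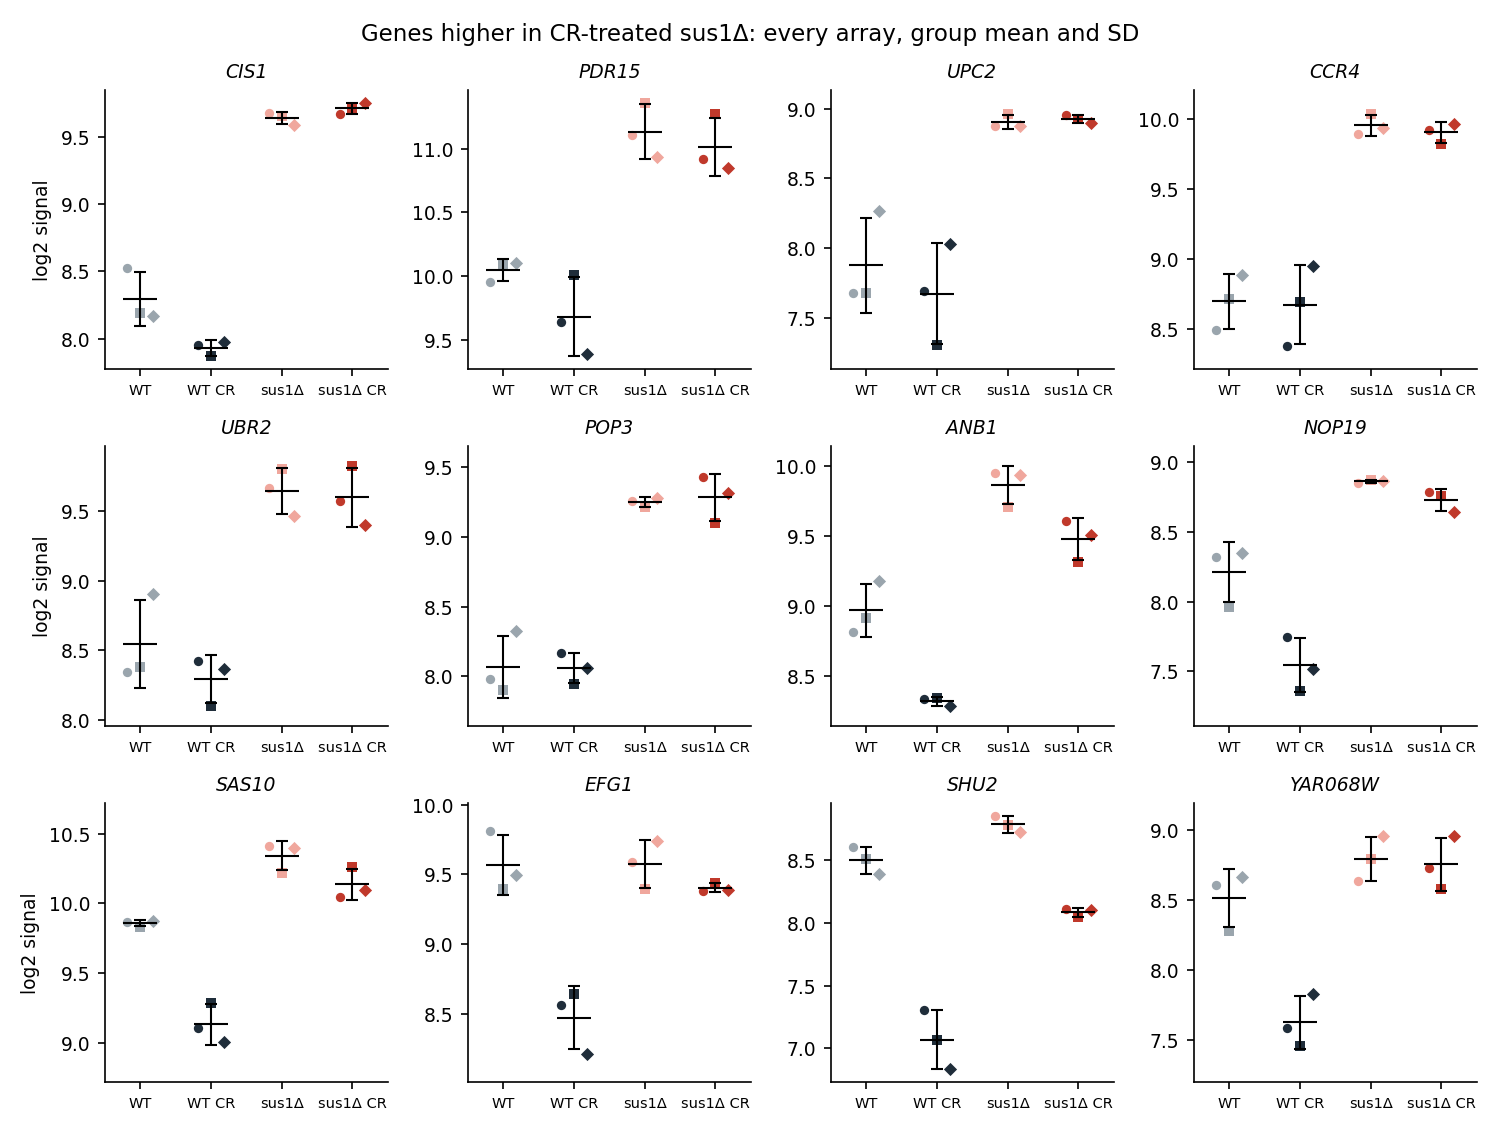
Log2 signal (vertical axes) of 12 genes higher in CR-treated *sus1*Δ cells, in untreated and CR-treated cells of each strain, with array, mean and SD (n = 3) drawn as circles, squares and diamonds for arrays 1, 2 and 3, a horizontal bar and an error bar. *CIS1* reads 7.87 to 7.98 in CR-treated WT and 9.67 to 9.75 in CR-treated *sus1*Δ cells, while *SHU2*, *EFG1* and *YAR068W* differ less without CR than with it.

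Genes that WT cells lower under CR formed the counterpart of the induced set. Of the 13 genes that the study lists as repressed, 10 had a level of 7 or more, and 7 of these were higher in CR-treated *sus1*Δ cells, 0 lower, with a median of 0.73. Without CR 0 passed in either direction and the median was 0.05. This list too was chosen by the study on these arrays. *SHU2*, which encodes a protein of recombination repair, read 7.30, 7.07 and 6.83 in WT and 8.11, 8.04 and 8.10 in *sus1*Δ cells. All WT arrays were lower (difference 1.02, SE 0.11, adjusted p = 0.00013 from limma), against 0.29 without CR (adjusted p = 0.079). *YAR068W* read 7.59, 7.46 and 7.83 in WT and 8.73, 8.58 and 8.96 in *sus1*Δ cells (1.13, SE 0.14, adjusted p = 0.00028 from limma), and *MAE1*, which encodes the mitochondrial malic enzyme, differed by 0.99.

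Ribosome biogenesis, whose factors cleave, modify and assemble ribosomal RNA in the nucleolus, was higher as a group. Of 96 genes, 46 were higher and 0 lower, 93 had a positive difference, and the median was 0.33. Without CR 11 were higher and 2 lower with a median of 0.07. The count was 58 without WT culture 3 and 46 when only the treated arrays were fitted. The median CR response of the list was -0.44 for WT and -0.20 for *sus1*Δ cells, a smaller fall in the mutant. *EFG1*, an rRNA processing gene, read 8.56, 8.64 and 8.21 in WT and 9.38, 9.44 and 9.39 in *sus1*Δ cells (difference 0.93, SE 0.13, adjusted p = 0.00071 from limma), and 0.01 without CR (adjusted p = 0.98). *NOP19* (1.18) and *SAS10* (1.00), which act in the small subunit pathway and were not on the list, were among the called genes. The helicase gene *DBP10* (0.88), *RRP14* (0.82) and *FAF1* (0.80) were higher by less than 2-fold. Of 13 genes of RNA polymerase I, which transcribes ribosomal RNA, 5 were higher and 0 lower, among them *RPA135* (0.43, adjusted p = 0.0084 from limma), which encodes a core subunit. The 128 genes of cytosolic ribosomal proteins did not share this direction. Under CR 0 were higher and 12 (9.38%) lower, a share below the 12.1% of all genes, with a median of -0.07, and 5 were lower with only the treated arrays. Without CR 28 were lower. *RPL15B* differed by -0.50 with CR and -0.56 without it.

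**Figure D4:**
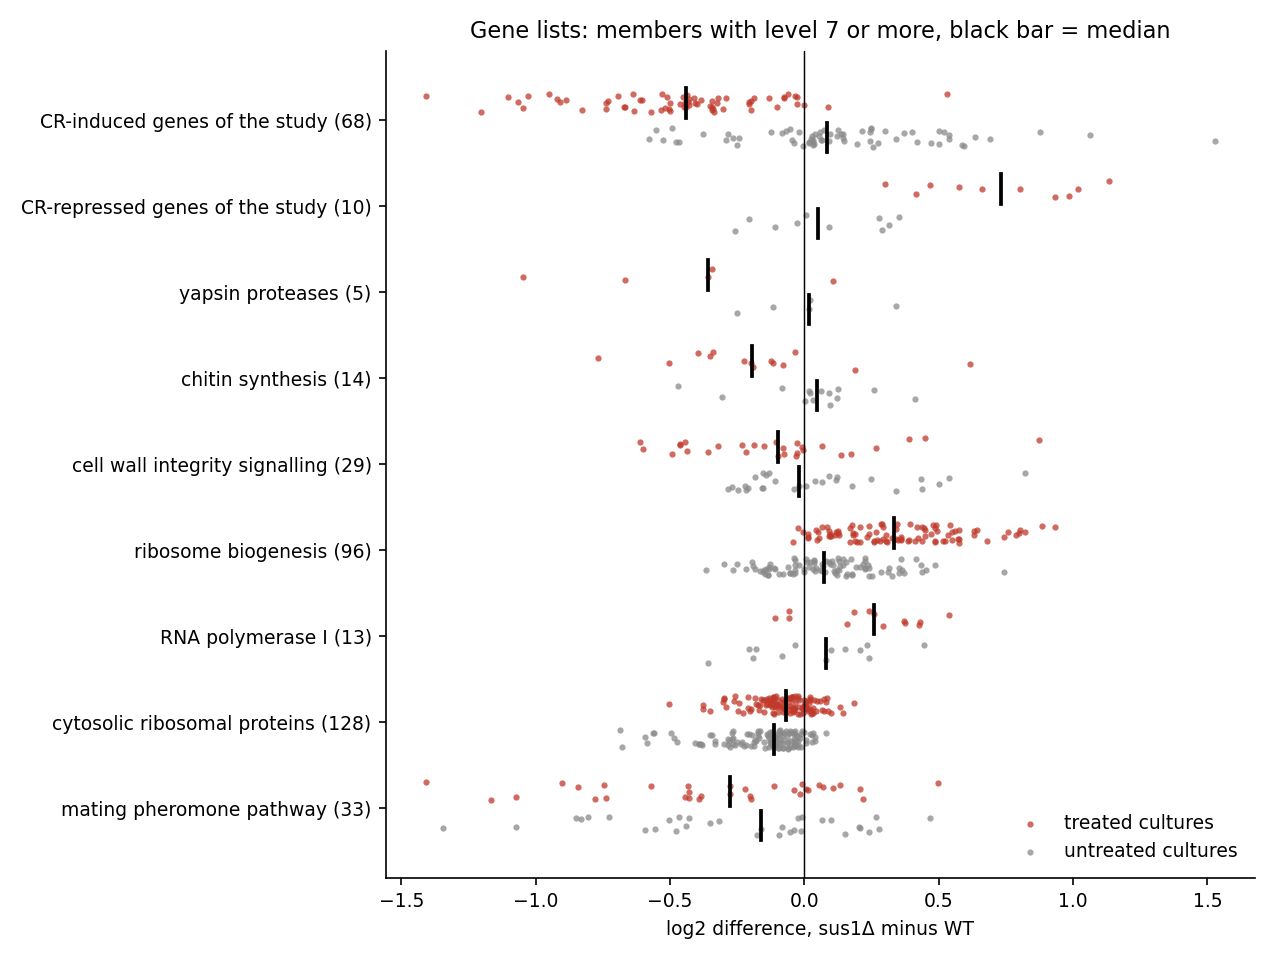
Log2 difference between *sus1*Δ and WT cells (horizontal axis) for the members of 9 gene lists with a level of 7 or more, 1 point per gene, with CR in red and without CR in grey, the black bar being the median and the number of genes standing in parentheses. The CR-induced list has medians of -0.44 with and 0.08 without CR, and ribosome biogenesis 0.33 and 0.07.

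Of 14 genes of G1/S transcription, 3 (21.4%) were higher and 4 (28.6%) lower, against 13.8% and 12.1% of all genes. The cyclin gene *CLN2* was lower by 0.60, and *CLN3* was higher by 0.59 but missed the threshold without mutant array 3 (adjusted p = 0.059 from limma).

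Of the other subunits of the deubiquitination module and TREX-2, 0 of 7 passed. In the rest of SAGA 5 of 16 genes were higher and 0 lower. *TRA1*, which encodes the scaffold that activators bind, read 9.58, 9.20 and 9.56 in WT and 10.24, 10.35 and 10.09 in *sus1*Δ cells (0.78, SE 0.14, adjusted p = 0.0021 from limma). *SGF29* (0.75) and *ADA2* (0.37) were higher too. Of 21 genes of H2B ubiquitination, the Paf1 complex and histone methylation by COMPASS, 6 were higher and 3 lower. The COMPASS subunit genes *BRE2* (0.82) and *SHG1* (-0.80) moved apart, and *PAF1* was higher by 0.47. Among 19 mRNA export genes, 2 were higher and 1 lower. *YRA1*, which encodes the export adaptor that joins mRNA to its receptor, read 11.69, 11.65 and 11.93 in WT and 12.54, 12.51 and 12.55 in *sus1*Δ cells (0.77, SE 0.08, adjusted p = 8.6e-05 from limma) and differed by 0.71 without CR. Of 8 genes of silencing proteins 2 were higher, *HST2*, which encodes a sirtuin deacetylase, by 0.80. Of 10 histone genes 3 were higher and 0 lower, among them the centromeric histone gene *CSE4* by 0.61 (2 were higher with only the treated arrays).

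In several metabolic lists the count turned on 1 WT culture. Of 17 genes of trehalose and glycogen, 3 were lower and 0 higher, and 8 were lower without WT culture 3. Of 46 genes of the TCA cycle and the respiratory chain, 7 (15.2%) were lower and 3 (6.52%) higher, and 20 were lower without that culture. *SDH4*, which encodes a subunit of succinate dehydrogenase, read 10.47, 10.53 and 10.40 in WT and 9.71, 9.70 and 9.71 in *sus1*Δ cells (-0.76, adjusted p = 0.0019 from limma), whereas *IDH1*, which encodes a TCA enzyme, was higher by 0.51. In iron uptake 4 of 24 genes were higher and 0 lower, and 14 were higher without WT culture 3. *FTR1*, the iron permease gene, differed by 0.55. Of 16 importer genes for amino acids, ammonium and peptides, 4 were higher and 0 lower, among them *DIP5* (0.75) and *BAP2* (0.54). Of 17 genes of chaperones and the unfolded protein response in the endoplasmic reticulum, 5 were lower and 1 higher (3 and 1 with only the treated arrays), with *SIL1*, which encodes an exchange factor of Kar2, at -0.85 and *HAC1*, which encodes the regulator of that response, at 0.45. In the osmotic stress list, 5 of 17 genes were lower and 4 higher, the latter being 2 without WT culture 3. *CYS3*, which encodes cystathionine gamma-lyase, was lower by 0.76 (adjusted p = 0.00011 from limma), and *ZRT1*, which encodes a zinc importer, higher by 0.77. *ADH1*, *PHO84*, *GAL1* and *ARG1* are known from earlier work as genes with Sus1 at their promoters while their transcription is activated. Whether they were in that state in these glucose-grown cultures was not tested. They differed by 0.06, 0.09, -0.04 and -0.17 (with *GAL1* under the level of 7), and their adjusted p-values were 0.43, 0.87, 0.85 and 0.84 from limma.

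The mating pheromone pathway also depended on WT culture 3. With all arrays, 6 of 33 were lower and 1 higher, and without it 17 were lower and 1 higher. Named after its values were seen, *AGA1*, which encodes the anchor of the agglutinin that binds mating cells, read 11.04, 11.05 and 8.61 in CR-treated WT and 8.76, 9.04 and 9.39 in CR-treated *sus1*Δ cells. WT culture 3 lay below all mutant arrays while the other WT cultures lay above them. The difference was -1.17 (adjusted p = 0.21 from limma) and -1.98 without that culture (adjusted p = 8.2e-05). *ASG7* was alike, with 9.88, 9.82 and 6.98 in WT and 7.86, 8.19 and 8.38 in *sus1*Δ cells. For *FIG2*, with 10.19, 10.40 and 8.56 against 8.53, 8.67 and 8.73, WT culture 3 lay within the mutant range. Without that culture the differences of *ASG7* and *FIG2* were -1.71 and -1.65 (adjusted p = 6.6e-05 and 1.1e-05 from limma). Of the same culture, the untreated array of *AGA1* read 8.72 and those of the other WT cultures 10.65 and 10.98, so culture 3 was low in both its parts. Of the members that passed with all arrays, *PRM10* (-0.74) and *PRM8* (-0.78) did not overlap between the strains, and *PRM10* is also on the CR-induced list. *PRM10* read 9.38, 9.45 and 9.41 in WT and 8.70, 8.60 and 8.74 in *sus1*Δ cells.

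Below a level of 7 the picture was one-sided. Of 664 such genes, 99 (14.9%) were called higher and 2 (0.301%) lower, *YIR042C* (-1.34) and *PGU1* (-1.02), which missed the threshold with only the treated arrays (adjusted p = 0.0602 from limma). The median difference was 0.21 at levels under 4, 0.64 at levels from 4 to 5, 0.56 from 5 to 6, 0.32 from 6 to 7 and 0.14 from 7 to 8, and lay between 0.06 and -0.06 above 8. Without CR the medians up to level 8 were 0.19, 0.76, 0.64, 0.40 and 0.16. The 5th percentile of genes lay at 4.72 to 5.05 on the CR-treated WT arrays and at 5.62 to 5.67 on the CR-treated *sus1*Δ arrays. The deleted genes *URA3*, *LEU2* and *MET17* differed by 0.18, -0.15 and 0.15, and none passed. *MET17* read 3.24 to 3.47 in WT and 3.44 to 3.65 in *sus1*Δ cells. The levels of *URA3* and *MET17* lie under 4, where the median was 0.21, and that of *LEU2* from 4 to 5, where it was 0.64. After quantile normalization over the genes tested, 53 dim genes were called higher and 7 lower. How much of the shift in dim genes comes from the hybridization was not tested. At the limit itself, *YGR153W*, with a level of 7.002 and a difference of 0.12, lay just inside and *GDH3*, with 6.997 and 0.29, just outside.

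Single dim genes, chosen after their values were seen, nevertheless differed much more than the medians at their level. *MMS21*, which encodes a SUMO ligase, read 3.95, 4.04 and 4.19 in WT and 7.37, 7.37 and 7.27 in *sus1*Δ cells. The difference was 3.27 (SE 0.11, adjusted p = 2.6e-08 from limma) and 3.00 without CR. *TOP3*, which encodes a DNA topoisomerase, read 4.62, 4.11 and 4.47 in WT and 6.99, 6.88 and 6.69 in *sus1*Δ cells, and *SAE2*, which encodes a factor of DNA end resection, 4.78, 4.36 and 4.11 against 7.16, 7.22 and 6.91. *STE3*, which encodes the receptor that α cells use for a-factor and marks the other mating type, read 5.36, 5.76 and 5.20 in WT and 6.98, 6.74 and 6.76 in *sus1*Δ cells. Of the 99 dim genes called higher, 95 were also higher without CR at an adjusted p under 0.05, and the median differences were 1.47 with CR and 1.5 without it.

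Genes of subtelomeric Y' elements, which are repeated at many chromosome ends, were higher as a group and included the largest positive difference of any gene, that of *YEL076C*. This set and that of retrotransposon genes were assembled after their values were seen, and their probe sets may read near-identical copies, so that no single copy can be named as the source. Of 9 Y' genes measured, 8 were higher under CR and 0 lower (median 2.97), and 8 were higher without CR (median 3.07). *YBL111C* read 10.01, 9.63 and 10.23 in WT and 12.14, 12.50 and 12.14 in *sus1*Δ cells. Every mutant array was above every WT array, and the difference of 2.31 (SE 0.16, adjusted p = 1e-05 from limma) was the largest among genes with a level of 7 or more. *YBL112C* read 8.66, 8.52 and 8.65 in WT and 10.65, 11.02 and 10.53 in *sus1*Δ cells (2.12, SE 0.18, adjusted p = 2.8e-05 from limma). Below level 7, *YEL076C* read 5.23, 4.19 and 4.58 in WT and 8.43, 9.38 and 8.57 in *sus1*Δ cells (4.13, SE 0.35, adjusted p = 2.8e-05 from limma). *YFL065C* (3.22), *YEL076C-A* (3.30), *YFL064C* (3.04), *YLR462W* (2.97) and *YEL075C* (1.13) were higher as well, while *YBL113C*, the outermost annotated gene of its arm, differed by 0.30 (adjusted p = 0.066 from limma, and 0.0337 without WT array 2).

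Retrotransposon genes had no common direction. Of 10, 5 were higher and 1 lower under CR, and 5 and 2 without it. *YAR010C* read 11.62, 10.81 and 11.59 in WT and 13.04, 13.34 and 12.94 in *sus1*Δ cells (1.76, SE 0.30, adjusted p = 0.0017 from limma). *YBL100W-A* read 7.15, 5.97 and 7.02 in WT and 10.85, 11.18 and 9.80 in *sus1*Δ cells. Its difference of 3.90 (SE 0.41, adjusted p = 0.00013 from limma) was 1.94 without CR, with an interaction of 1.96 (adjusted p = 0.3, and 0.043 with the culture as a random block). *YOR192C-C*, described above, was the lower one. By gene order in the R64 annotation, 5 of the 29 genes called higher (17.2%) were among the 10 outermost annotated genes of a chromosome arm, against 2.55% of all genes with a level of 7 or more, and 0 of the 10 called lower were. Among dim genes the share was 21.2% of the 99 called higher and 14.3% of the other 565.

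**Figure D5:**
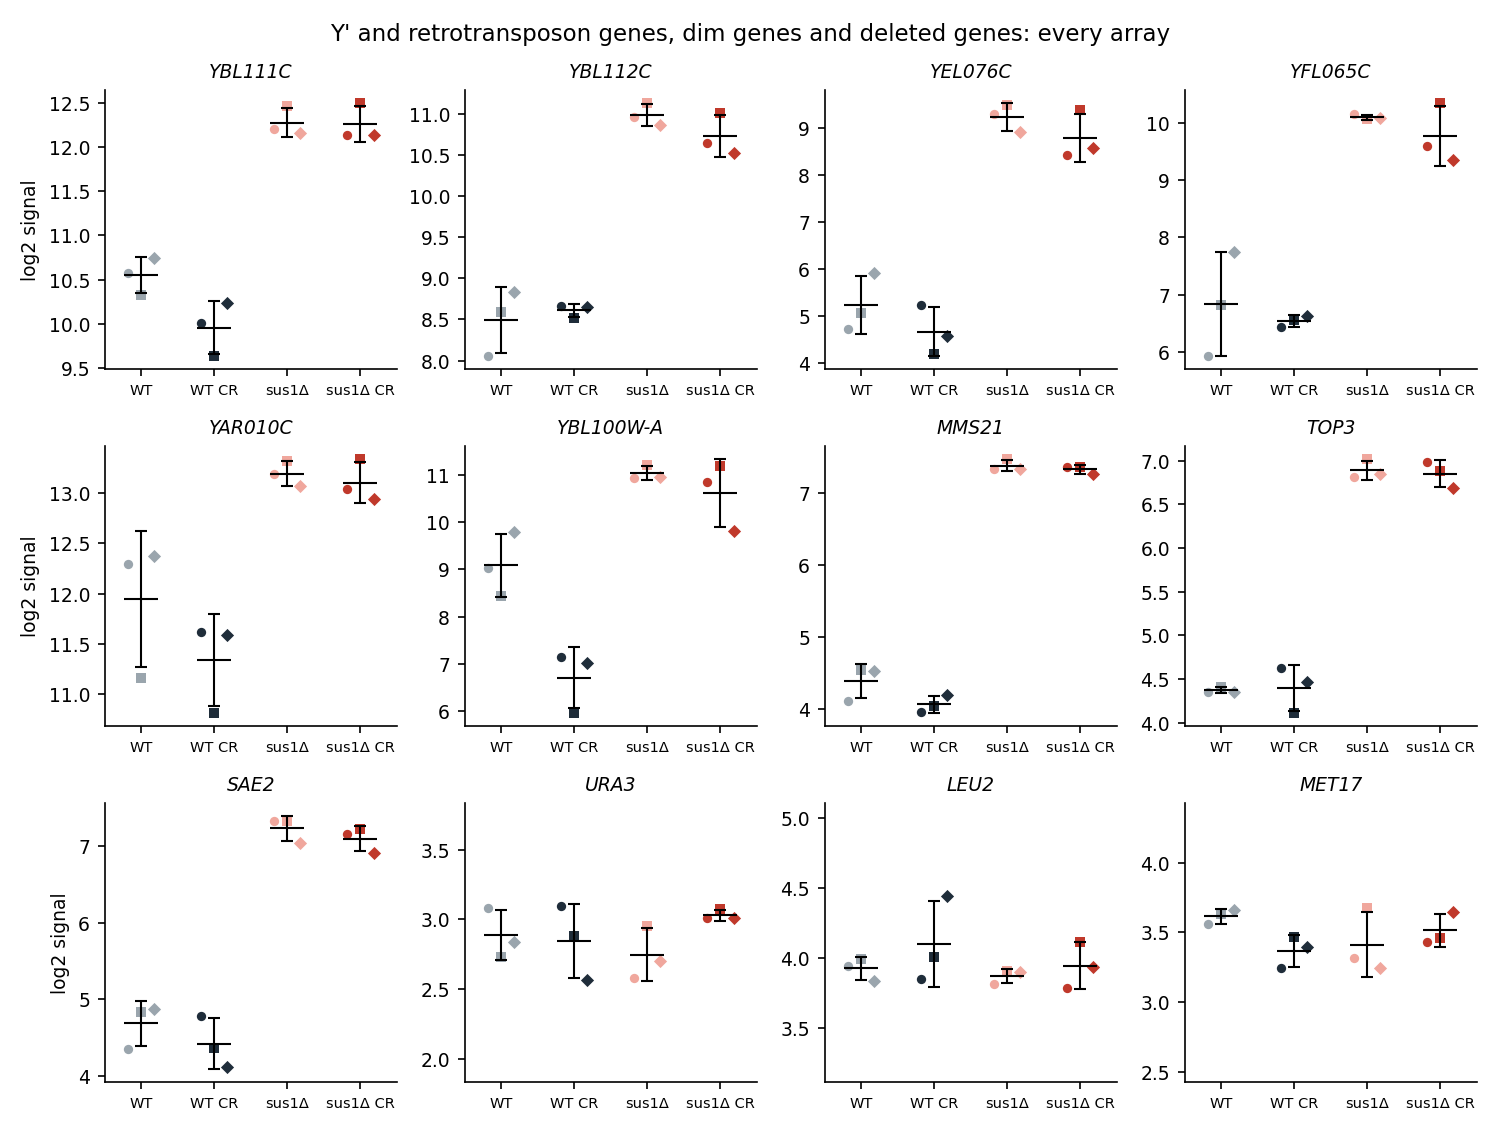
Log2 signal (vertical axes) of Y' element genes (*YBL111C*, *YBL112C*, *YEL076C*, *YFL065C*), retrotransposon genes (*YAR010C*, *YBL100W-A*), dim genes (*MMS21*, *TOP3*, *SAE2*) and genes deleted in both strains (*URA3*, *LEU2*, *MET17*), with circles, squares and diamonds for arrays 1, 2 and 3 and bars for mean and SD (n = 3). The first 9 genes read higher on all *sus1*Δ arrays than on the WT arrays of the same treatment, whereas the deleted genes stay between 2.57 and 4.44.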

How the data were processed

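RNA was measured on Affymetrix GeneChip yeast arrays. The deposited log2 values come from RMA as run by the authors in Expression Console, a method of background correction, quantile normalization and probe set summary. The program's version and which arrays were normalized jointly: not given in the sources used here. Of 5739 probe sets, 5498 name 1 gene each by the platform annotation and 241 were left unnamed. Where a gene had more than 1 probe set (47 genes), the one with the highest mean over all arrays stood for it and the other 49 were dropped. Symbols were updated through the R64 gene table, and no coordinates are given because no build is named.

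In R 4.3.3, limma 3.58.1 fitted 4 group means to 12 arrays, so that the untreated arrays share in the variance. Only 3 arrays per group limit the precision. In simulated data for the treated comparison of 5449 genes, 99% of genes with a 3-fold change were recovered. The simulated arrays were drawn independently, with no shared culture. Smaller changes were not simulated, so recovery near the 2-fold threshold is not known. The gene lists and the rule for named genes (*SUS1* with its neighbors, the deleted genes, genes named by the study, the 15 largest called differences and 5 largest interactions in each direction, and up to 4 members per list) came from textbook knowledge or the study's text, and the members and lists were chosen with earlier results of these data known. The planned promoter motifs were not searched. Alternatives changed the test, the fold, the level filter, the probe sets, the samples, the block, the variance model and the scaling. Deviations from group means correlated by 0.247 to 0.716 in the 6 pairs of arrays from 1 culture, which the methods and the series design give as divided samples. Not all lists written are described in the text.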

Additional observations from a re-analysis of the deposited data

Results flagged for a closer look

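From untreated to CR-treated cells the strain difference of *PIR3* changed by -2.08 on the log2 scale. That of *CRG1* changed by -1.23, that of *YNR065C* by -1.17 and that of *SKM1* by -0.69. These genes were singled out because the interaction term of limma, which tests the change of the difference itself, passed at an adjusted p under 0.05. Of the 241 probe sets that the platform annotation does not name, 5 were at least 2-fold higher in CR-treated *sus1*Δ than in CR-treated WT cells and 0 lower by limma, and all 5 had a level under 7. They were singled out as a signal in data that no comparison of named genes uses.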

How the results depend on the processing

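Of the 29 genes higher and 10 lower in CR-treated *sus1*Δ cells, the number called was 658 and 581 with no limit on the ratio, 162 and 90 at a ratio of 1.5, 17 and 9 at a level of 8, and 128 and 12 with no limit on the level. With the level of 7 taken over all 6 treated arrays in place of WT alone, 41 were called higher and 9 lower. The methods' t-test gave 28 and 10 unadjusted, and 24 and 7 after Benjamini-Hochberg. Array weights gave 23 and 16, quantile normalization 23 and 13, and the fit without both arrays of WT culture 3 gave 26 and 22. Leaving out 1 treated array at a time gave 25 to 33 higher and 7 to 14 lower. With the replicate number as a replicate block, 29 were higher and 14 lower, and the interaction passed for 3 called genes. Across strains these numbers do not pair samples, since the deviations of CR-treated arrays with the same number correlated by -0.013 to 0.169. The interaction, which passed for 2 called genes, passed for 7 with the culture as a random block, for 1 with array weights, for 1 without WT culture 3 and for 1 to 3 with 1 treated array left out. Alternatives for genes under level 7 and for the gene lists were chosen after seeing the data. Quantile normalization gave 53 dim genes higher and 7 lower in place of 99 and 2, and the lower ones were 1 with only the 6 treated arrays, 5 with array weights, 6 without WT culture 3 and 1 to 5 with 1 treated array left out. Small differences changed sign. With quantile normalization *ACT1* was 0.036 and *MET17* -0.051, with array weights *RLM1* was 0.004, and without WT culture 3 *LEU2* was 0.019, *RLM1* 0.02, *MFA2* -0.083 and *STE2* -0.052. With 1 treated array left out, *CYC8* ranged from -0.077 to 0.163, *ACT1* from -0.04 to 0.014, *LEU2* from -0.277 to 0.019, *RLM1* from -0.162 to 0.02, *GAL1* from -0.146 to 0.068, *PHO84* from -0.194 to 0.326, *ARG1* from -0.825 to 0.187, *MFA1* from -0.768 to 0.015, *MFA2* from -0.083 to 0.216 and *STE2* from -0.052 to 0.406. The cause of these changes was not tested. Signal near the floor limits what can be said of dim genes.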
